A study of Bos taurus with 20 samples.

Results

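The 6 peroxiredoxin genes (PRDX1 to PRDX6) and GSTP1 were followed in RNA sequencing of bovine embryos recovered at day 14. They were taken by gene symbol, and all 7 were found among the 15542 genes of the deposited table. All 7 also passed the filter for testing (at least 10 reads in at least 2 libraries), as did 10599 genes in all. There were 7 samples of trophectoderm (TE) isolated from vitrified embryos and 5 from fresh ones, beside 2 whole embryos that had been vitrified and 6 that were fresh. Vitrification is cryopreservation by cooling so fast that water sets as a glass without ice crystals, and fresh embryos had not been vitrified. All came from viable embryos flushed from the uterus, 9 vitrified and 12 fresh by the submitters' count, and the labels tie no sample to an embryo. No strain, sex, recipient or pooling is given in the sources used here, and no batch is named, so batch and group cannot be told apart. The p-values measure only the spread between these samples, which may be technical.

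Peroxiredoxins are abundant thiol enzymes that reduce hydrogen peroxide and organic peroxides through a cysteine in their active site. Most are then restored by thioredoxin, whereas PRDX6 draws on glutathione with the help of GSTP1, the pi-class glutathione transferase, which also joins glutathione to reactive compounds. The family covers the cell's compartments, with PRDX1 and PRDX2 mainly in the cytosol, PRDX3 in mitochondria, PRDX4 in the endoplasmic reticulum and secretory route, PRDX5 in mitochondria, peroxisomes and cytosol, and PRDX6 in the cytosol. These roles are known mainly from human and mouse proteins. Embryos meet oxidative stress in culture, freezing and thawing, and the elongating TE is a rapidly growing epithelium from which the placenta arises.

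On the UMD3.1 assembly, as the table gives it, PRDX1 lies on chromosome 3 from 101152892 to 101166726 and PRDX2 on chromosome 7 from 13845843 to 13848480, both on the plus strand. PRDX3 lies on chromosome 26 from 39672044 to 39681393 and PRDX4 on chromosome X from 126551745 to 126564690, both on the minus strand. PRDX5 and GSTP1 share chromosome 29, from 43229777 to 43232886 and from 46087142 to 46090006, and PRDX6 lies on chromosome 16 from 56389804 to 56399715, all on the plus strand. All are annotated as protein coding. A small RNA gene of the table lies within each of the spans of PRDX1, PRDX2 and PRDX4, and how reads of such overlaps were assigned is not given in the sources used here. Levels are in RPKM, reads per kilobase of genomic span (introns included) and per M (1000000) library reads. They compare samples for the same gene, and are not used to rank the 7 genes against each other.

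All 5 libraries of fresh TE stood apart. The genes of the table took 33.8 to 40.3% of their reads, against 57.5 to 63.9% in the other libraries. Libraries held 6.01 to 14.53 M reads. Mitochondrially encoded messenger RNA made up 8.04 ± 1.44% of listed-gene reads in vitrified TE (SD, n = 7) and 1.23 ± 0.144% in fresh TE (n = 5), and small RNA genes gave 149 ± 39.9 and 688 ± 193 reads per M listed-gene reads. Among them 2 pairs were near-identical, with a chi-square of counts per degree of freedom of 1.88 between samples 1 and 2 and of 1.48 between samples 3 and 4, where 1 is counting noise and the remaining pairs gave 11.9 to 22.6. Each entered the fits on its own, and an alternative took each pair's mean as 1 sample.

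Marker genes were set beside the labels. All 11 trophectoderm markers were detected in every library except TEAD4 in 1 fresh TE library, with sums of 2542 to 3651 RPKM in vitrified TE, 2408 to 3180 in fresh TE, 2883 to 3386 in vitrified embryos and 1793 to 2561 in fresh embryos. The keratins KRT8, KRT18 and KRT19 made up most of each sum. Within the list, KRT8, ASCL2 and DSP averaged 859, 136 and 3.65 RPKM in vitrified TE and 163, 13.9 and 0.359 in fresh TE. GATA2, GATA3, KRT19, ELF5 and TEAD4 also averaged lower in fresh TE. KRT18, TFAP2A and TFAP2C ran the other way, at 1518, 1.16 and 7.50 RPKM in vitrified TE and 2153, 1.43 and 10.7 in fresh TE. The 9 hypoblast markers (the layer that lines the yolk sac) summed to 66.9 to 131 RPKM in vitrified TE against 1.64 to 4.78 in fresh TE, and to 57.0 to 63.8 in vitrified embryos against 11.99 to 63.6 in fresh embryos. Most of this was APOE, and CUBN stood at 0 in both vitrified embryos. Of the 8 epiblast markers 7 were in the table, and their sums were 3.32 to 7.92 RPKM in vitrified TE, 1.48 to 3.93 in fresh TE, 5.77 and 31.1 in vitrified embryos and 3.83 to 11.8 in fresh embryos. POU5F1, which marks the epiblast, stood at 0.316 RPKM in vitrified embryo 1 and 20.6 in vitrified embryo 2, and the value of vitrified embryo 1 lay within the 0.302 to 1.25 of vitrified TE. NANOG and SOX2, which also mark it, were detected in 3 and 6 of 7 vitrified TE libraries and in 2 and 1 of 5 fresh TE libraries. Over the 2 vitrified embryos NANOG ran from 0 to 4.22 RPKM, SOX2 from 0.0813 to 2.98 and TDGF1 from 2.99 to 5.25. The 5 blood and immune markers present summed to 4.40 to 7.20 RPKM in vitrified TE and 9.70 to 15.8 in fresh TE, where AIF1 made up 8.83 to 15.3. The 3 endometrial markers present, of 8, summed to 0.981 to 5.04 RPKM over all libraries. The part of these markers in the results below was not tested, and in such samples fewer cells of a type and less RNA per cell cannot be told apart.

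**Figure D1:**
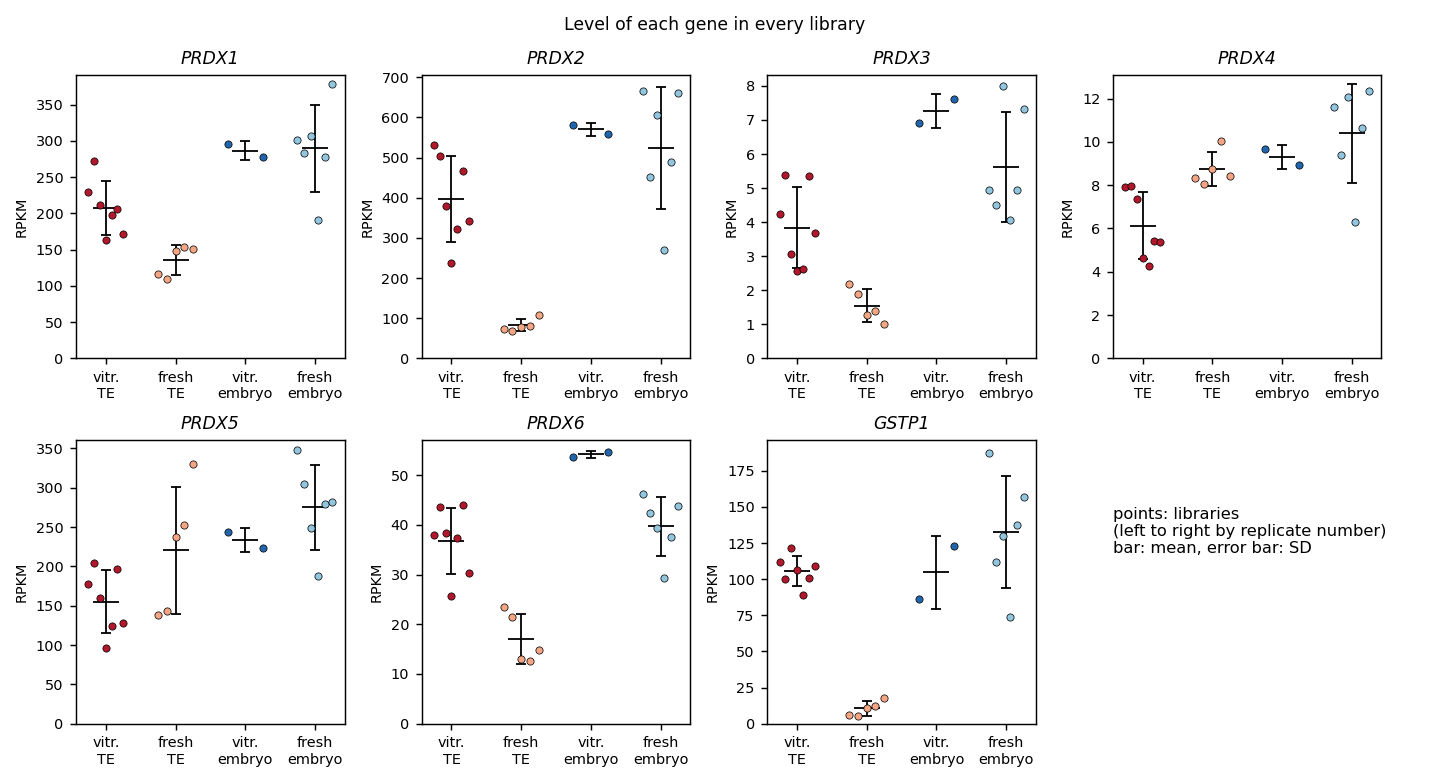
RPKM of each of the 7 genes (vertical axes, linear from 0) in every library, with vitrified TE, fresh TE, vitrified whole embryos and fresh whole embryos from left to right. Points are libraries, the long bar is the group mean and the error bar the SD (n = 7, 5, 2 and 6); GSTP1 and PRDX2 are far lower in the 5 fresh TE libraries than in the other 15, while PRDX4 and PRDX5 are lowest on average in vitrified TE.

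The 7 genes did not share an order of groups. GSTP1 averaged 106 ± 10.5 RPKM in vitrified TE, 10.6 ± 4.93 in fresh TE, 105 ± 25.6 in vitrified embryos and 133 ± 38.8 in fresh embryos (SD, n = 7, 5, 2 and 6, here and for the means that follow). PRDX2 averaged 398 ± 107, 81.9 ± 14.9, 570 ± 15.8 and 524 ± 153 RPKM in the same groups. For both genes fresh TE stood alone at the bottom. The ranges of the 3 other groups overlapped for GSTP1, whereas for PRDX2 both vitrified embryos lay above all vitrified TE samples.

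Fresh TE was also last for PRDX1, PRDX3 and PRDX6, with smaller distances. PRDX1 averaged 207 ± 36.6 RPKM in vitrified TE, 135 ± 21.1 in fresh TE, 286 ± 12.9 in vitrified embryos and 289 ± 60.2 in fresh embryos. PRDX3 averaged 3.84 ± 1.20, 1.55 ± 0.478, 7.26 ± 0.507 and 5.62 ± 1.61 RPKM in these groups. PRDX6 averaged 36.7 ± 6.68, 17.1 ± 5.07, 54.2 ± 0.717 and 39.7 ± 5.97 RPKM. By their means whole embryos led in all 3 genes, with vitrified TE below them and above fresh TE. The ranges of vitrified TE and fresh embryos overlapped in each of the 3.

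PRDX4 and PRDX5 had vitrified TE at the bottom instead. PRDX4 averaged 6.13 ± 1.56 RPKM in vitrified TE, 8.73 ± 0.781 in fresh TE, 9.30 ± 0.549 in vitrified embryos and 10.4 ± 2.29 in fresh embryos. PRDX5 averaged 155 ± 40.3, 220 ± 80.8, 233 ± 14.8 and 275 ± 54.0 RPKM. Both vitrified embryos lay within the range of the 5 fresh TE libraries for PRDX4 (8.91 and 9.69 within 8.04 to 10.04 RPKM) and for PRDX5 (223 and 244 within 138 to 330).

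Vitrified TE was compared with fresh TE in 7 and 5 samples. An effect, a rise or a fall here names a difference between vitrified and fresh groups, from which batch cannot be told apart. GSTP1 and PRDX2 rose in vitrified TE under every scaling of the libraries that was tried, PRDX4 fell, and the other 4 genes depended on the scaling. In the values as deposited, 5 of the 7 genes rose and 1 fell, where 75.6% of all tested genes passed the test (69% higher and 6.66% lower). In 5 genes every vitrified TE sample lay above every fresh one and in 1 below, where 54.6% and 3.96% of all genes did. The count of 6 in 7 called was thus near the background, and the genes of the family differed mainly in direction and size.

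GSTP1, which works with PRDX6 and conjugates reactive compounds, stood at 88.7, 107 and 122 RPKM (lowest, median and highest) in vitrified TE, against 6.28, 5.64, 10.7, 12.5 and 17.7 RPKM in fresh TE 1 to 5. Every vitrified TE sample lay above every fresh one, and fresh TE 1 and 2 were the lowest libraries of all. The means differed 10.01-fold, and the log2 fold change was 3.31 with a standard error of 0.24 (limma, adjusted p = 5.3e-10). A fold of means is a ratio of mean RPKM, while a limma fold change is a difference in log2(RPKM + 1), on which low genes change less than their ratio. Of the tested genes with reads in both groups, 10.4% had a higher fold of means than GSTP1, and the median gene stood at 2.45-fold. Over 34 alternative settings the log2 fold change of GSTP1 ran from 2.26 to 3.51, with adjusted p between 4.1e-11 and 4.2e-07.

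PRDX2, a cytosolic peroxidase abundant in red blood cells, stood at 239, 379 and 532 RPKM (lowest, median and highest) in vitrified TE, against 73.9, 68.4, 79.2, 81.2 and 107 RPKM in fresh TE. The groups did not overlap, and fresh TE 5, the highest of its group, was still far below the lowest vitrified sample. The means differed 4.85-fold, with a log2 fold change of 2.23 ± 0.22 (SE, adjusted p = 3.5e-08), and 25.2% of genes had a higher fold. Over the alternatives it ran from 1.12 to 2.35 (adjusted p 2.8e-10 to 1.1e-04).

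PRDX6, the glutathione-dependent peroxiredoxin, stood at 25.7, 37.9 and 43.9 RPKM in vitrified TE, against 23.5, 21.5, 12.9, 12.6 and 14.8 RPKM in fresh TE. The groups did not overlap, and the gap was narrow because fresh TE 1 and 2 were high. PRDX6 rose by 1.09 ± 0.17 on the log2 scale (adjusted p = 1.1e-05), a fold of means of 2.15. Under median-ratio scaling the change was 0.01 (adjusted p = 0.95) and under quantile normalization 0.13 (adjusted p = 0.53), and the median gene had a larger fold of means at 2.45.

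PRDX3, the mitochondrial member, stood at 2.56, 3.68 and 5.40 RPKM in vitrified TE, against 2.18, 1.89, 1.27, 1.40 and 1.007 RPKM in fresh TE. These levels rest on few reads, 191 to 458 per library in vitrified TE and 63 to 126 in fresh TE. The groups did not overlap, with a log2 fold change of 0.91 ± 0.18 (adjusted p = 1.5e-04). It was 0.14 under median-ratio scaling (adjusted p = 0.51) and 0.09 under quantile normalization (adjusted p = 0.67).

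PRDX1, a cytosolic peroxidase that also takes part in hydrogen peroxide signalling, stood at 163, 206 and 272 RPKM in vitrified TE, against 116, 109, 148, 153 and 151 RPKM in fresh TE. Every vitrified TE sample lay above every fresh one. The log2 fold change was 0.61 ± 0.15 (adjusted p = 0.0016), and 71.4% of genes had a higher fold of means than the 1.53 of PRDX1. The direction turned to -0.021 per M listed-gene reads (adjusted p = 0.91), to -0.017 per M reads of nuclear genes outside the ribosomal proteins (adjusted p = 0.92), and to -0.51 under median-ratio scaling (adjusted p = 0.0048).

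PRDX4, which works in the secretory route and supports oxidative protein folding, went the other way. It stood at 4.27, 5.44 and 7.96 RPKM (lowest, median and highest) in vitrified TE, against 8.34, 8.04, 8.77, 10.04 and 8.44 RPKM in fresh TE. No vitrified TE sample reached the lowest fresh one, although vitrified TE 1 and 2 came close at 7.89 and 7.96 RPKM. PRDX4 fell by 0.47 on the log2 scale, with a standard error of 0.16 (adjusted p = 0.012). It was lower under all 34 alternatives (-1.48 to -0.41), and the single alternative in which it missed the threshold left out fresh TE 3 and 4 (-0.41, adjusted p = 0.071).

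PRDX5, found in mitochondria, peroxisomes and cytosol, stood at 96.3, 160 and 204 RPKM in vitrified TE, against 138, 143, 238, 253 and 330 RPKM in fresh TE. The groups overlapped, since fresh TE 1 and 2 lay among the vitrified samples while fresh TE 3, 4 and 5 lay above them all. The log2 fold change of -0.47 ± 0.23 did not pass (adjusted p = 0.068). With fresh TE 1 and 2 both left out it was -0.84 (adjusted p = 0.0028), and under the other 4 scalings it lay between -1.58 and -0.90 and passed the threshold. It also passed without fresh TE 1 (-0.61, adjusted p = 0.022), fresh TE 2 (-0.60, adjusted p = 0.027), vitrified TE 2 (-0.54, adjusted p = 0.042) or vitrified TE 6 (-0.53, adjusted p = 0.048), and with sample weights (-0.54, adjusted p = 0.017).

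**Figure D2:**
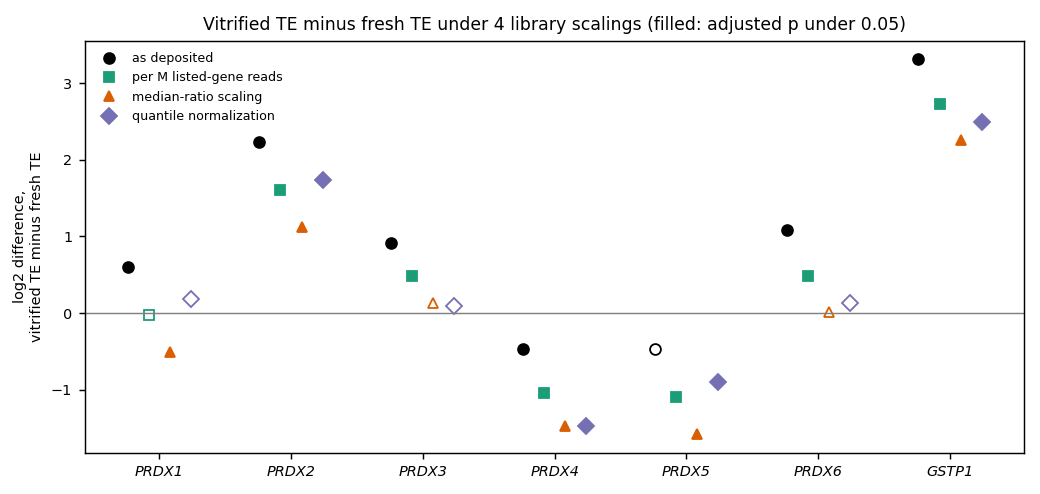
Log2 difference of vitrified TE minus fresh TE (vertical axis) for each gene under 4 scalings of the libraries, with filled symbols where the adjusted p is under 0.05. GSTP1 and PRDX2 stay above 0 and PRDX4 and PRDX5 below 0 under all 4, whereas PRDX1 crosses 0 and PRDX3 and PRDX6 come close to it.

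In the values as deposited most called genes were higher in vitrified TE. Of 8017 genes called, 7311 were higher, or 91.2%. The share was 75.8% per M listed-gene reads, 56.0% under median-ratio scaling and 40.4% under quantile normalization, as the median log2 fold change of all genes moved to 0.06, 0.01 and -0.01 against 0.18 as deposited. Among the 7 genes, 4 rose and 2 fell per M listed-gene reads, where 49.2% and 15.7% of all genes did (64.9% in all). Under median-ratio scaling 2 rose and 3 fell (35.1% and 27.5% of all genes), and under quantile normalization 2 rose and 2 fell (26.2% and 38.7%, or 64.9% in all). With the near-identical fresh TE libraries averaged the count was 5 higher and 1 lower, as in the main values.

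A measure that needs no scaling is the make-up of the reads of the 7 genes within each library. PRDX2 took 19.99 ± 2.42% of these reads in vitrified TE and 6.99 ± 0.636% in fresh TE (SD, n = 7 and 5), and GSTP1 took 6.01 ± 1.26% and 0.936 ± 0.291%. PRDX5 took 9.22 ± 1.03% in vitrified TE and 21.5 ± 4.46% in fresh TE, and PRDX4 took 1.53 ± 0.226% and 3.71 ± 0.517%. Ranges did not overlap for any of these 4 genes. PRDX1 took the most in every library, 55.5 ± 2.81% in vitrified TE and 60.6 ± 2.505% in fresh TE, with overlapping ranges. The shares of 1 library sum to 100, so that a higher share of 1 gene lowers the others.

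**Figure D3:**
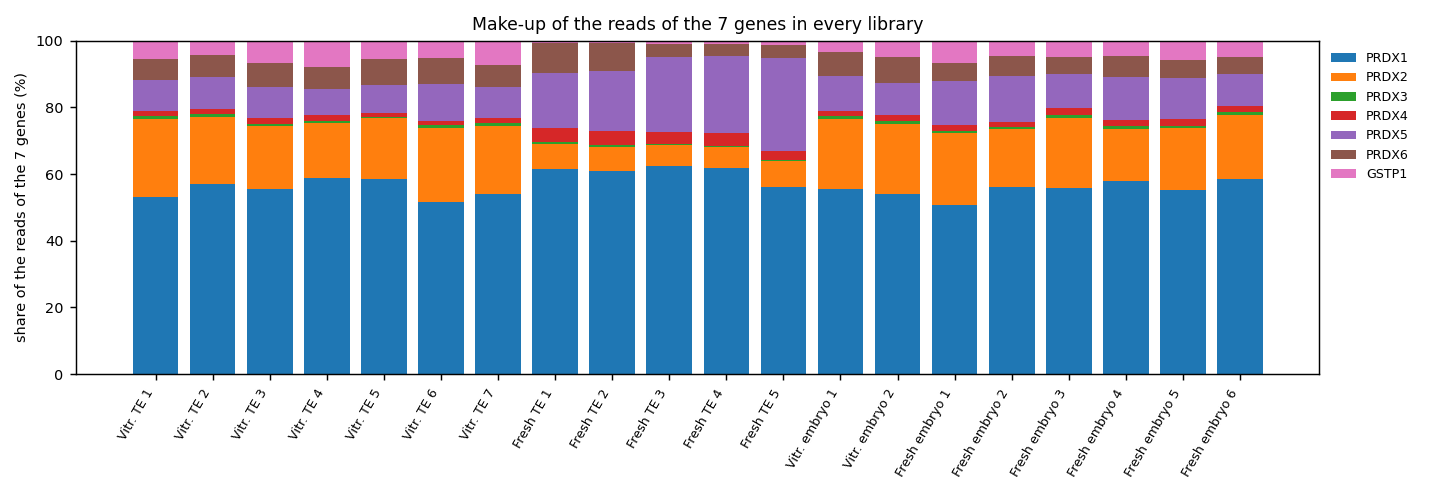
Share of the recovered reads of the 7 genes that each gene took (vertical axis, percent) in each of the 20 libraries, stacked, with vitrified TE, fresh TE, vitrified whole embryos and fresh whole embryos from left to right. The 5 fresh TE libraries have a narrow PRDX2 band (6.26 to 7.61%) and a wide PRDX5 band (16.5 to 27.6%), against 15.6 to 23.5% and 7.81 to 13.6% over the other 15.

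Whole embryos were compared in 2 vitrified and 6 fresh samples. None of the 7 genes passed the test (limma, 0 of 7 adjusted and 0 of 7 at an unadjusted p under 0.05), where 30.9% of all genes passed (26.9% higher and 3.94% lower). With 2 vitrified embryos the intervals were wide, and a missed threshold does not show that the groups were alike.

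PRDX6 came nearest. It stood at 53.7 and 54.7 RPKM in the vitrified embryos, against 29.3, 40.8 and 46.2 RPKM (lowest, median and highest) in the fresh ones. Both vitrified embryos lay above all 6 fresh embryos, as was so for 29.4% of genes, with 6.54% separated the other way. The log2 fold change was 0.45 ± 0.23 (adjusted p = 0.15), with a 95% interval from -0.04 to 0.94.

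GSTP1 stood at 86.6 and 123 RPKM in the vitrified embryos, against 73.5, 134 and 187 RPKM in the fresh ones. Both vitrified embryos lay within the fresh range, and the interval of the log2 fold change ran from -0.99 to 0.38 around -0.305. PRDX2 stood at 581.6 and 559 RPKM in vitrified embryos, against 270, 547 and 666 RPKM in fresh ones, again within the range (0.19, interval -0.46 to 0.83).

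The other 4 genes also overlapped between vitrified and fresh embryos. PRDX1 stood at 295 and 277 RPKM in vitrified embryos, against 191, 292 and 378 RPKM in fresh ones, with a log2 fold change of 0.01 (interval -0.44 to 0.46). PRDX3 stood at 6.90 and 7.62 RPKM in vitrified embryos, against 4.06, 4.94 and 7.98 RPKM in fresh ones (0.35, interval -0.17 to 0.87). For PRDX4 the change was -0.12 (interval -0.58 to 0.35) and for PRDX5 -0.21 (interval -0.87 to 0.45).

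The difference between the vitrification effects in whole embryo and in TE was tested as an interaction term. It passed for 2 of the 7 genes, GSTP1 and PRDX2, both lower in the whole embryo comparison, where 32.3% of all genes passed (28.4% lower and 3.98% higher). For GSTP1 the whole embryo effect minus the TE effect was -3.61 ± 0.40 (SE, adjusted p = 4.7e-06). For PRDX2 it was -2.05 ± 0.38 (adjusted p = 4.9e-04). Both held under all 33 alternatives (-3.86 to -2.69 and -2.23 to -1.27). The other 5 did not pass in the values as deposited. PRDX1 passed without fresh embryo 4 (-0.71, adjusted p = 0.022), and PRDX6 without fresh TE 1 (-0.75, adjusted p = 0.045) or without both fresh TE 1 and 2 (-0.91, adjusted p = 0.013). PRDX6 also passed with the replicate numbers as a block (-0.86, adjusted p = 0.010). For PRDX4 the difference was 0.35 ± 0.27 (adjusted p = 0.34) as deposited and passed under the 4 other scalings, at up to 1.09 (adjusted p = 9.2e-04), as did PRDX5 under median-ratio scaling (1.04, adjusted p = 0.042) and quantile normalization (0.86, adjusted p = 0.044).

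**Figure D4:**
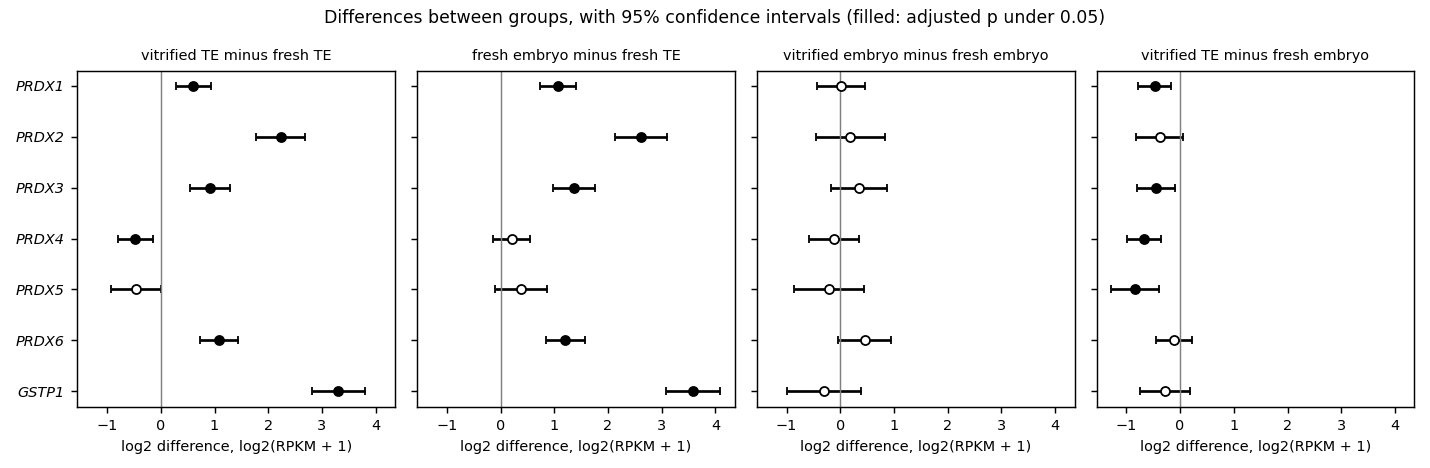
Log2 difference between groups with its 95% confidence interval (horizontal axes, shared scale) for each gene in 4 comparisons, each named as first group minus second, with filled points where the adjusted p is under 0.05. The first and second panels share the fresh TE samples and resemble each other except for PRDX4 and PRDX5. These lie below 0 in the first panel and above 0 in the second. Every interval of vitrified minus fresh embryo spans 0.

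Fresh whole embryos, which hold epiblast and hypoblast beside TE, were set against fresh TE. As deposited, 5 of the 7 genes were higher in fresh embryos, where 66% of all genes passed (60% higher and 5.97% lower), and none was lower. GSTP1 stood at 73.5, 134 and 187 RPKM in fresh embryos, with every embryo above all 5 fresh TE samples given above. The means differed 12.6-fold (log2 fold change 3.58 ± 0.24, adjusted p = 9.6e-10), and 5.62% of genes had a higher fold. PRDX2 differed 6.39-fold (2.61 ± 0.23, adjusted p = 1.7e-08), with 13.4% of genes higher. These fresh TE samples also entered the comparison with vitrified TE, so the comparisons are not independent.

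PRDX3 was higher in fresh embryos by 1.36 ± 0.18 (adjusted p = 3.4e-06), PRDX6 by 1.20 ± 0.17 (adjusted p = 7.3e-06) and PRDX1 by 1.08 ± 0.16 (adjusted p = 9.9e-06), with no overlap between the groups in any of the 3. Groups were separated in this direction for 48.4% of genes and in the other for 2.94%. Under median-ratio scaling PRDX1 stood at 0.10 (adjusted p = 0.60) and PRDX6 at 0.26 (adjusted p = 0.23), and neither passed under quantile normalization. PRDX4 (0.20 ± 0.16, adjusted p = 0.28) and PRDX5 (0.37 ± 0.23, adjusted p = 0.16) did not pass. PRDX4 turned to between -0.77 and -0.39 under the 4 other scalings and passed as lower in each, and PRDX5 turned to between -0.60 and -0.27 and passed as lower under median-ratio scaling (adjusted p = 0.026). Without fresh TE 5, PRDX5 passed as higher (0.54, adjusted p = 0.047). The median log2 fold change of all genes in this comparison was 0.14 as deposited and 0.04, 0.01 and -0.01 per M listed-gene reads, under median-ratio scaling and under quantile normalization.

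Vitrified whole embryos were likewise set against vitrified TE. Only PRDX3 passed in the values as deposited, at 6.90 and 7.62 RPKM in the vitrified embryos against 2.56, 3.68 and 5.40 RPKM in vitrified TE (log2 fold change 0.81 ± 0.24, adjusted p = 0.029), where 18.9% of genes passed (15.3% higher and 3.59% lower). This call was lost in 9 of 34 alternatives, among them every other scaling and leaving out either vitrified embryo (adjusted p 0.083 without vitrified embryo 1 and 0.20 without vitrified embryo 2). With the replicate numbers as a block the change was 0.70 (adjusted p = 0.072).

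In 6 of the 7 genes both vitrified embryos lay above all 7 vitrified TE samples, as was so for 20.4% of genes, with 5.94% separated the other way. PRDX1 stood at 295 and 277 RPKM against at most 272, PRDX2 at 581.6 and 559 against at most 532, and PRDX4 at 9.69 and 8.91 against at most 7.96. PRDX5 and PRDX6 were the others, at log2 fold changes of 0.63 ± 0.31 and 0.57 ± 0.23 (adjusted p = 0.15 and 0.086). PRDX4 (0.56, adjusted p = 0.076) passed without vitrified TE 2 (0.62, adjusted p = 0.048) or without fresh embryo 4, which enters only the shared spread (adjusted p = 0.036), and PRDX6 likewise without fresh TE 1 and 2 (adjusted p = 0.048). GSTP1 was the exception, with vitrified embryos at 86.6 and 123 RPKM on either side of all 7 vitrified TE samples and a log2 fold change of -0.03 (interval -0.71 to 0.65).

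Vitrified TE was also set against fresh whole embryos, a comparison that differs in both tissue and vitrification. The fresh TE libraries enter it only through the shared spread. In the main fit 4 of the 7 genes were lower in vitrified TE and none was higher, where 48.9% of all genes passed (31.2% higher and 17.7% lower). With only the groups compared, 3 of the 7 were lower and none was higher. PRDX5 changed most, at 96.3, 160 and 204 RPKM in vitrified TE against 188, 280 and 348 RPKM in fresh embryos (log2 fold change -0.84 ± 0.21, adjusted p = 0.0032). PRDX4 stood at 4.27, 5.44 and 7.96 RPKM against 6.28, 11.1 and 12.4 RPKM (-0.68 ± 0.15, adjusted p = 0.0011). In both genes the groups overlapped only through fresh embryo 4, the lowest of its group, and both calls held under all 34 alternatives. For none of the 7 genes were the groups separated here, where vitrified TE lay wholly above fresh embryos for 15.2% of genes and wholly below for 6.4%.

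PRDX1 was lower in vitrified TE by -0.47 ± 0.15 (adjusted p = 0.012) and PRDX3 by -0.46 ± 0.17 (adjusted p = 0.033), with overlapping groups. The PRDX1 call was lost under quantile normalization (-0.11, adjusted p = 0.46). The PRDX3 call was lost in 9 alternatives (-0.456 to -0.36, adjusted p up to 0.087), among them without fresh embryo 3 or 6 and without vitrified TE 3, 4 or 5. GSTP1 (-0.28 ± 0.22, adjusted p = 0.33), PRDX2 (-0.38 ± 0.21, adjusted p = 0.14) and PRDX6 (-0.12 ± 0.16, adjusted p = 0.57) did not pass. PRDX2 passed in 3 alternatives, at -0.56 without fresh embryo 4 (adjusted p = 0.015), -0.52 under median-ratio scaling (adjusted p = 0.038) and -0.46 with sample weights (adjusted p = 0.043).

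Within groups the 7 genes moved together in some libraries. Fresh embryo 4 was the lowest of the 6 fresh embryos for all 7 genes, as it was for 31.6% of tested genes. Its values were 0.516 to 0.737 of the group mean, with a median of 0.661 over the 7 genes. The median was 0.889 over the 3877 tested genes kept by a floor on the group's mean RPKM. Fresh embryo 6 lay above the group mean for all 7 (1.02 to 1.31). Fresh embryo 4 also had the shallowest library of its group, at 6.09 M reads, and it stayed lowest for all 7 genes per M listed-gene reads.

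In vitrified TE, sample 4 was lowest for PRDX1, PRDX2, PRDX3, PRDX5 and PRDX6, as it was for 20.8% of genes, and sample 5 was lowest for PRDX4 and GSTP1. The coefficient of variation among the 7 vitrified TE samples ran from 9.91% for GSTP1 to 31.1% for PRDX3. Its median was 25.5% over the 7 genes and 18.3% over the tested genes above the same floor on the group's mean RPKM. GSTP1 was thus the steadiest of the 7 genes in vitrified TE. In fresh TE it varied most, at 46.7%, and PRDX4 least, at 8.94%.

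The 5 fresh TE libraries split in a gene-specific way. In fresh TE 1 and 2, GSTP1 stood at 6.28 and 5.64 RPKM and PRDX5 at 138 and 143, against 10.7 to 17.7 and 238 to 330 in fresh TE 3, 4 and 5. PRDX3 (2.18 and 1.89 against 1.007 to 1.40 RPKM) and PRDX6 (23.5 and 21.5 against 12.6 to 14.8 RPKM) ran the opposite way. Because fresh TE 1 and 2, like 3 and 4, are near-identical libraries, the split rests on 3 samples when each such pair is counted once.

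**Figure D5:**
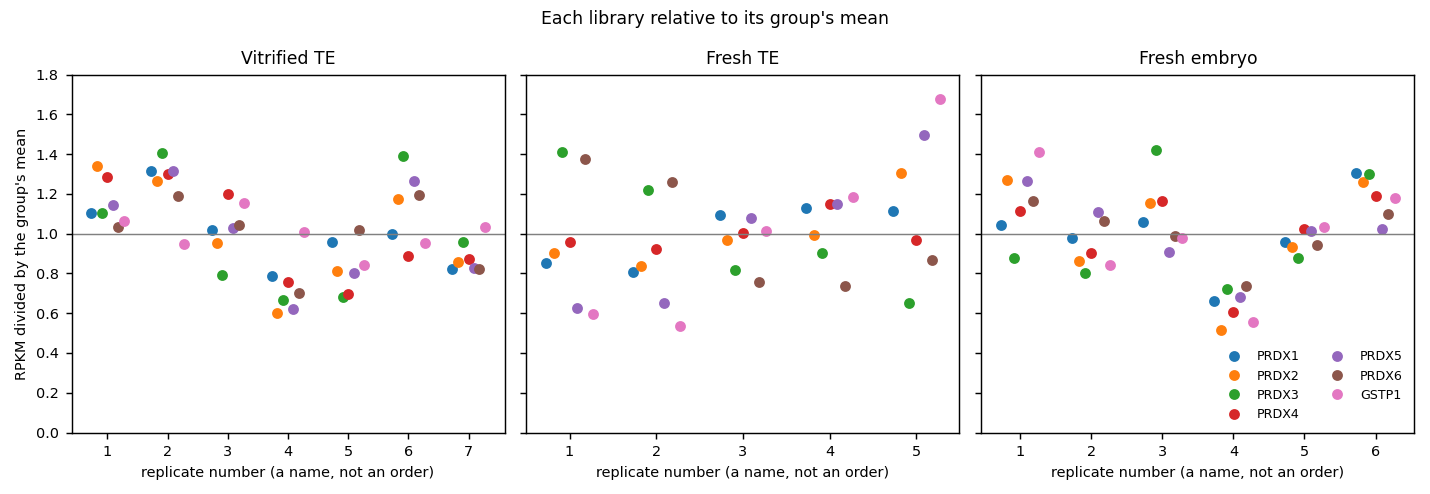
RPKM of each gene divided by the mean of its group (vertical axes) in each library of vitrified TE, fresh TE and fresh whole embryos, with a line at 1. Fresh embryo 4 has all 7 genes below 1 (0.516 to 0.737), and in fresh TE 1 and 2 PRDX3 and PRDX6 lie above 1 while GSTP1 and PRDX5 lie below it.

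For each gene the genes most alike were sought by Pearson's r of log values among 9652 other named genes, as a description over samples that share group and library scale. Over all 20 samples the highest were FIS1 (0.991) and EMC6 (0.990) for GSTP1, MPV17 (0.989) and DNASE1L3 (0.989) for PRDX2, CWC15 (0.986) and RBM7 (0.972) for PRDX3, and GLOD4 (0.973) and CKS1B (0.972) for PRDX1. NDUFAF4 (0.951) and BCL10 (0.949) led for PRDX6, TM2D2 (0.922) and TCEAL8 (0.869) for PRDX4, and UFC1 (0.8998) and NEDD8 (0.893) for PRDX5. Over all 20 samples such values were common for PRDX2, with 761 genes over 0.9, and rare for PRDX4, with 1, and PRDX5, with 0. Without fresh TE this order was reversed, with 34 genes for PRDX2, 118 for PRDX4 and 71 for PRDX5. Over the 15 samples without fresh TE, CWC15 stayed first for PRDX3 (0.975) and NDUFAF4 for PRDX6 (0.926), and FIS1 was second for GSTP1 (0.860). The others were led by RIDA for PRDX1 (0.967), HUS1 for PRDX2 (0.942), ERH for PRDX4 (0.972), PTRH2 for PRDX5 (0.961) and ZNF593 for GSTP1 (0.911).

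The surrounding thiol and peroxide pathways were described from 6 lists of 84 symbols, of which 73 were in the table and 67 were tested. In vitrified against fresh TE the thioredoxin system, which restores most peroxiredoxins, had 7 of 16 genes higher and 1 lower, where 69% and 6.66% of all genes were, with a median log2 fold change of 0.14 beside 0.18 over all genes. TXN2, the mitochondrial thioredoxin, averaged 14.7 ± 1.27 RPKM in vitrified TE and 2.20 ± 0.310 in fresh TE (log2 fold change 2.29 ± 0.15, adjusted p = 1.2e-10). GLRX5, a mitochondrial glutaredoxin of iron-sulphur cluster assembly, changed by 1.86 ± 0.21 (adjusted p = 1.8e-07). Both stayed higher under the 4 other scalings (1.41 to 1.82 and 1.03 to 1.44), whereas the list as a whole had 4 higher and 9 lower under median-ratio scaling, where 35.1% and 27.5% of all genes were.

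TXN, the cytosolic thioredoxin that serves PRDX1 and PRDX2, averaged 52.3 ± 5.05 RPKM in vitrified TE and 34.0 ± 4.95 in fresh TE, and 43.7 ± 4.81 in vitrified embryos and 71.4 ± 9.61 in fresh embryos. It was higher in vitrified TE (0.61 ± 0.11, adjusted p = 7.9e-05) and lower in vitrified embryos (-0.69 ± 0.16, adjusted p = 0.0028), with a difference of effects of -1.30 ± 0.19 (adjusted p = 7.5e-05). The TE change turned direction under all 4 other scalings (-0.48 under median-ratio scaling, adjusted p = 0.0018, to -0.0022), whereas the whole embryo change stayed lower and passed in each. The difference of effects kept its sign under the 4 other scalings and passed in 2 of them. TXNDC17, a thioredoxin-like protein, was also lower in vitrified than in fresh embryos (70.9 ± 14.7 and 145 ± 24.5 RPKM, log2 fold change -1.02 ± 0.18, adjusted p = 4.9e-04). SRXN1, which repairs overoxidised peroxiredoxins, did not pass in vitrified against fresh TE (-0.01 ± 0.05, adjusted p = 0.83) or in vitrified against fresh embryos (-0.03 ± 0.07, adjusted p = 0.77).

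In glutathione synthesis and reduction, 10 of 11 genes were higher and 1 lower in vitrified than in fresh TE (median 0.27), beside the same 69% and 6.66% of all genes. The split was 4 higher and 2 lower under median-ratio scaling and 2 and 3 under quantile normalization. GCLC, the catalytic subunit of the first step of glutathione synthesis, changed by 0.05 ± 0.0079 (adjusted p = 2.0e-05). It stayed higher and called under the 4 other scalings (0.022 to 0.045). GSS, the second enzyme, changed by 0.21 ± 0.04 (adjusted p = 9.2e-05). But GSS stood at 0.0012 under median-ratio scaling (adjusted p = 0.98) and at -0.070 under quantile normalization (adjusted p = 0.15). GSR, which reduces oxidised glutathione, was higher in vitrified than in fresh embryos (0.791 ± 0.0836 and 0.478 ± 0.164 RPKM, adjusted p = 0.027), a call kept in 1 of the 4 other scalings. The other glutathione transferases had 6 of 14 higher and 1 lower in vitrified than in fresh TE (median 0.11), below the 69% of all genes that were higher, with GSTK1, a mitochondrial and peroxisomal transferase, at 0.994 ± 0.255 and 0.356 ± 0.165 RPKM (0.56 ± 0.12, adjusted p = 5.6e-04). This was the largest rise among the 14 on the log2(RPKM + 1) scale as deposited, which shrinks the changes of low genes such as GSTK1. The 0.56 of GSTK1 is therefore not a like measure to the 3.31 of GSTP1, which averaged 106 and 10.6 RPKM. The GSTK1 call was lost under median-ratio scaling (0.16, adjusted p = 0.27) and quantile normalization (0.079, adjusted p = 0.60).

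Of the glutathione peroxidases 4 were tested, and GPX1, GPX4 and GPX6 were not in the table. Of the 4, 1 was higher in vitrified than in fresh TE, where 69% of all genes were higher. It was GPX8 of the endoplasmic reticulum (0.34 ± 0.15, adjusted p = 0.046). This call was lost under each of the 4 other scalings (adjusted p 0.088 to 0.32). GPX2, known from the gut epithelium, was lower in vitrified than in fresh embryos (0.991 and 5.50 against 5.93 to 10.1 RPKM, log2 fold change -1.27 ± 0.39, adjusted p = 0.020). Superoxide dismutases and catalase, which make and remove hydrogen peroxide, were listed together with CCS. Of the 4 tested, 3 were higher in vitrified than in fresh TE, where 69% of all genes were higher and 6.66% lower. Under median-ratio scaling 1 was higher and 1 lower, where 35.1% and 27.5% of all genes were. SOD1 averaged 25.2 ± 7.02 RPKM in vitrified TE and 10.3 ± 1.39 in fresh TE (1.17 ± 0.20, adjusted p = 3.6e-05), and 0.12 under median-ratio scaling, where it no longer passed. SOD2, the mitochondrial form, averaged 1.61 ± 0.731 and 0.0172 ± 0.0271 RPKM (1.31 ± 0.24, adjusted p = 7.2e-05), and was also higher in vitrified than in fresh embryos (4.70 ± 0.830 and 1.62 ± 1.08 RPKM, adjusted p = 0.0093). CAT, catalase, was higher in vitrified embryos (2.56 ± 0.0282 and 1.23 ± 0.199 RPKM, adjusted p = 0.0025), though it did not pass under median-ratio scaling (adjusted p = 0.083) or quantile normalization (adjusted p = 0.15).

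Regulators and targets of NRF2, the transcription factor that drives many antioxidant genes in human and mouse cells, had 14 of 18 higher and 0 lower in vitrified than in fresh TE (median 0.30), near the 69% of all genes that were higher. Under median-ratio scaling the split was 6 higher and 7 lower (35.1% and 27.5% of all genes), and under quantile normalization 5 and 7 (26.2% and 38.7%). FTL, a subunit of the iron store ferritin, averaged 1293 ± 131 RPKM in vitrified TE and 261 ± 7.23 in fresh TE (2.30 ± 0.16, adjusted p = 4.9e-10), and PGD, an enzyme of the pentose phosphate pathway that yields NADPH, 9.10 ± 1.17 and 3.101 ± 0.254 RPKM (1.29 ± 0.10, adjusted p = 2.2e-09). Both stayed higher and called under the 4 other scalings. The difference of effects passed for FTL at -2.07 ± 0.28 (adjusted p = 3.2e-05), lower in the whole embryo comparison like GSTP1 and PRDX2. In vitrified against fresh embryos 4 genes of the list were higher and 1 lower, where 26.9% and 3.94% of all genes were. These included KEAP1, the adaptor that marks NRF2 for breakdown, at 3.23 ± 1.36 and 1.57 ± 0.267 RPKM (0.69 ± 0.18, adjusted p = 0.0088), which did not pass under median-ratio scaling (0.42, adjusted p = 0.12) or quantile normalization (0.35, adjusted p = 0.21).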

How the data were processed

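The single deposited table holds RPKM values with an offset of 0.01, made by the authors with FastQC, STAR 2.5.3a, the UMD3.1 assembly and Partek, per the submitters' processing notes. The unit was inferred from the values: after removal of the offset and multiplication by genomic span, 94.5 to 95.8% of values under 1000 reads fell within 0.1 of a whole number of reads per library. The counting rule is not given in the sources used here. Because the values are normalized, edgeR and DESeq2 were not run. The plan for counts gave way to limma 3.58.1 (R 4.3.3, statmod 1.5.0) on log2(RPKM + 1), with a mean for each of 4 groups, trend and robust fitting, and Benjamini-Hochberg adjustment over 10599 genes within a comparison (threshold 0.05). The procedure was tested on simulated data. Fits were repeated under 34 alternatives, 2 of them added after the data were seen. The 7 genes, the pathway and marker lists and the naming rule were chosen with earlier results of these data known. The rule took the 7 genes in every comparison, up to 3 pathway genes with the smallest p per list in vitrified against fresh TE and up to 2 elsewhere, of which some are described. TXN in TE and embryos and SRXN1 were added after their values were seen. Replicate numbers were not used to pair samples in the main fit, since the labels do not say whether equal numbers share an embryo.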

Additional observations from a re-analysis of the deposited data

Results flagged for a closer look

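The difference between vitrified and fresh groups was not the same in whole embryo and TE for GSTP1 and PRDX2, by the interaction term. This term passed for 32.3% of all genes (28.4% lower and 3.98% higher), and batch cannot be told apart from group. The whole embryo effect minus the TE effect was -3.61 for GSTP1 (adjusted p = 4.7e-06 by limma), with a TE effect of 3.31 and a whole embryo effect of -0.305. For PRDX2 it was -2.05 (adjusted p = 4.9e-04), with a TE effect of 2.23 and a whole embryo effect of 0.19. Both rest on the 5 fresh TE libraries, of which samples 1 and 2, and samples 3 and 4, were near-identical. Their listed-gene share of reads was 33.8 to 40.3% against 57.5 to 63.9% elsewhere, and the part of that difference was not tested. No sample lay far enough from its group to be marked in the 21 groups of 5 to 7 samples examined.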

How the results depend on the processing

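Of 1421 refits of the 7 genes over all comparisons and alternatives, 1338 kept direction and side of the threshold, 29 lost the call, 27 gained it and 27 turned direction; the cause was not tested. Turned values in vitrified against fresh TE were those of PRDX1, -0.021 per M listed-gene reads, -0.51 under median-ratio scaling and -0.017 per M nuclear reads outside ribosomal proteins. In vitrified against fresh embryos PRDX1 turned to -0.053, -0.32 and -0.13 under these scalings and to -0.033 with sample weights, with values of -0.10 (without fresh embryo 4) to 0.094 when a sample was left out, and PRDX2 to -0.15 under median-ratio scaling. The difference of effects turned to 0.19 (median-ratio) and 0.073 (quantile) for PRDX1, and to 0.11 and 0.30 for PRDX6. In fresh embryo against fresh TE, PRDX4 turned to -0.39, -0.70, -0.77 and -0.44 and PRDX5 to -0.27, -0.60, -0.38 and -0.33 per M listed-gene reads, under median-ratio scaling, quantile normalization and per M nuclear reads, and PRDX5 to -0.0026 with fresh TE 1 and 2 left out. In vitrified embryo against vitrified TE, GSTP1 turned to 0.13 with the replicate block, and ran from -0.28 to 0.22 (without vitrified embryo 1) when a sample was left out. PRDX6 in vitrified TE against fresh embryo turned to 0.063 under quantile normalization. Genes called in vitrified against fresh embryos (3270) numbered 1863 under median-ratio scaling, 1571 under quantile normalization, 2157 with only the groups compared, 1763 with sample weights and 1137 to 3577 with a sample left out (1137 without vitrified embryo 2). In vitrified embryo against vitrified TE (1998) they numbered 627, 494, 786 and 175 under the same settings, 937 per M nuclear reads, 790 with the replicate block and 139 to 2336 with a sample left out (139 without vitrified embryo 2), and of the 7 genes 0 passed under the 4 scalings, with only the groups compared, with sample weights and with the block, 2 with fresh TE 1 and 2 left out, and 0 to 2 with a sample left out. In the difference of effects 4 of the 7 passed under median-ratio scaling and 4 under quantile normalization, against 2. Same-numbered samples deviated together with correlations of -0.19 to 0.31. Such values cannot decide whether equal numbers share an embryo, and the labels do not say. The block gave 7814 genes and 6 of the 7 in vitrified against fresh TE, against 8017 and 6. With the block PRDX6 gained a call in the difference of effects (-0.86, adjusted p = 0.010 by limma). Depth limits PRDX3 (63 to 126 reads) and GSTP1 (97 to 339 reads) most in fresh TE.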
